A study of Mus musculus with 24 samples.

Results

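Fabp3 and 6 other genes of muscle fatty acid uptake were followed in plantaris, a fast hindlimb muscle, of mice kept in normal air or exposed to tobacco smoke. The genes were picked by symbol (Fabp3, Cd36, Lpl, Slc27a1, Slc27a4, Acsl1 and Gpihbp1), and all 7 had a row among the 47643 genes of the count table. All mice were wild-type C57BL/6. They fell into an air group (11 samples) and a smoke group exposed for 16 weeks (13 samples), and no other treatment, age or batch is given in the labels. The labels do not say whether each sample is a separate animal, so the errors below measure the spread between these samples. The group of genes was proposed with the smoke against air difference of Fabp3 already known. The differences of the 7 genes between smoke and air are therefore given as a description without p-values. Only other genes and the variation within groups are tested, and the lists of other genes were also drawn up with earlier results known.

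Muscle takes up fatty acids in steps. Lipoprotein lipase (Lpl) is carried to the capillary lumen by Gpihbp1, a protein of endothelial cells, and releases fatty acids from triglyceride-rich lipoproteins there. Cd36 and the transport proteins Slc27a1 and Slc27a4 (also called FATP1 and FATP4) help fatty acids cross the plasma membrane, Acsl1 traps them as acyl-CoA, and Fabp3, the heart and muscle fatty acid-binding protein, carries them through the cytosol. Oxidative fibres are known for high levels of this machinery, and several of its genes are targets of the PPAR nuclear receptors.

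The libraries were made from the 3′ ends of transcripts, so a count is a tag near the poly(A) tail and is not divided by transcript length. Total counts ran from 2515697 to 4528845 per sample. Levels are given as CPM, counts scaled to a common library size by the trimmed mean of M-values (TMM), and 3 counts in a sample were worth between 0.662 and 1.19 CPM on the raw totals. In the column names of the table all smoke samples carry lower sheet numbers than all air samples, so sheet position cannot be told apart from exposure. Markers of fast fibres were abundant in every sample (8 genes with a sum of 101603 to 164044 CPM in air and 110378 to 143129 CPM in smoke), as the tissue label says. In whole muscle, fewer cells of a type and less RNA per cell cannot be told apart.

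The promoter windows of 3 of the genes are shown because the series concerns the aryl hydrocarbon receptor (AhR), whose core site is GCGTG, and because PPAR receptors bind copies of AGGTCA. Windows run from 250 bases before to 50 bases after a RefSeq start site (build GRCm38.p6), and 5 of the 7 genes had one or more, 8 windows in all. For Fabp3 (chr4:130308488-130308787, plus strand) the 50 bases after the start are in capitals. For Acsl1 (chr8:46470787-46471086, plus strand) the capitals mark matches to GCGTG on either strand, and for Cd36 (chr5:17835847-17836146, minus strand) the match to AGGTCA.
Fabp3: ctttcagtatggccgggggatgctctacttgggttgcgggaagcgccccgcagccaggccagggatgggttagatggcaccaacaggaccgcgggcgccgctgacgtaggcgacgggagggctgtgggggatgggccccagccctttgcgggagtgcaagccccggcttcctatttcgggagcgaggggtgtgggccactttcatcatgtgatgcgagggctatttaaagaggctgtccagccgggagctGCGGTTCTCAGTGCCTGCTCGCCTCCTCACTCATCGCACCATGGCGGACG
Acsl1: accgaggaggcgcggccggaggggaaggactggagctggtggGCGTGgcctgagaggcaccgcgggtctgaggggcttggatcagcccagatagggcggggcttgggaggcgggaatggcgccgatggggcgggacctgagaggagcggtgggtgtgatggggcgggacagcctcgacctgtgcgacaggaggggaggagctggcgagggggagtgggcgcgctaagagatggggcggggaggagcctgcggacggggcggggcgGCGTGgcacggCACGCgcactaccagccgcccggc
Cd36: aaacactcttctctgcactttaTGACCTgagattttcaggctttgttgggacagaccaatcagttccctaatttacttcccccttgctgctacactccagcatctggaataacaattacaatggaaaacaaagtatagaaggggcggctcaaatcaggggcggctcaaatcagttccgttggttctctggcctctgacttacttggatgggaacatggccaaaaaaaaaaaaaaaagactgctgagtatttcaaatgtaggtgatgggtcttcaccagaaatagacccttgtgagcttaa
The Fabp3 window held no match on either strand to the AhR core GCGTG, to the nuclear receptor site AGGTCA, to the PPAR response element (that site repeated after 1 base of any kind, so that each match also counts for the single site), to the D-box TTATGTAA bound by Nfil3 and Dbp, or to the E-box CACGTG. The Acsl1 window shown held 3 matches to GCGTG and a second Acsl1 window held none, and 1 of the 3 Slc27a1 windows held 1 match to GCGTG and 1 to the E-box. Cd36 held 1 match to AGGTCA. Over all 32851 windows of this length, 32.4% held GCGTG, 16.3% AGGTCA, 0.0396% the PPAR response element, 0.938% the D-box and 7.15% the E-box. A match is a description of the letters, and no binding was measured.

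Fabp3 had the largest difference between smoke and air among the 6 genes with enough counts to be tested. In air it ranged from 519 to 1205 CPM with a median of 842, and in smoke from 401 to 818 CPM with a median of 513. The mean went from 810 ± 184 CPM (SD, n = 11) in air to 539 ± 101 CPM (SD, n = 13) in smoke, a log2 difference of −0.59 (SE 0.10), or a ratio of 0.665. The groups overlapped, as they did for all but 0.0295% of tested genes: 12 of 13 smoke samples lay under the air mean, smoke replicate 13 at 818 CPM lay above it, and 5 of 11 air samples (replicates 2, 8, 9, 10 and 11, at 519 to 748 CPM) lay inside the smoke range. In a fit over all genes Fabp3 was the only 1 of the 6 uptake genes tested to be called (adjusted p under 0.05), where 1.92% of all 10159 tested genes were called and 1.19% were called lower. Because this difference led to the choice of genes, nothing is read from that count.

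The counts of Fabp3 (chromosome 4, 130308595 to 130315463, plus strand, GRCm38) were deep, from 1216 to 4383 per sample. Its locus overlaps Zcchc17 and Gm10570 on the opposite strand, and whether counting used strand is not given in the sources used here. Zcchc17 had 111 to 263 counts per sample and a log2 difference of −0.15 (SE 0.077), and Gm10570 had at most 1 count. Fabp3 also has an annotated processed pseudogene, Fabp3-ps1, which could share reads with it. Fabp3-ps1 had 31 to 77 counts per sample and means of 14.5 CPM (air) and 16.0 CPM (smoke), a log2 difference of 0.14 (SE 0.14). The level assigned to it was a small part of that of Fabp3 in both groups. How reads that match both loci were counted is not given, so these counts do not measure shared reads.

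**Figure D1:**
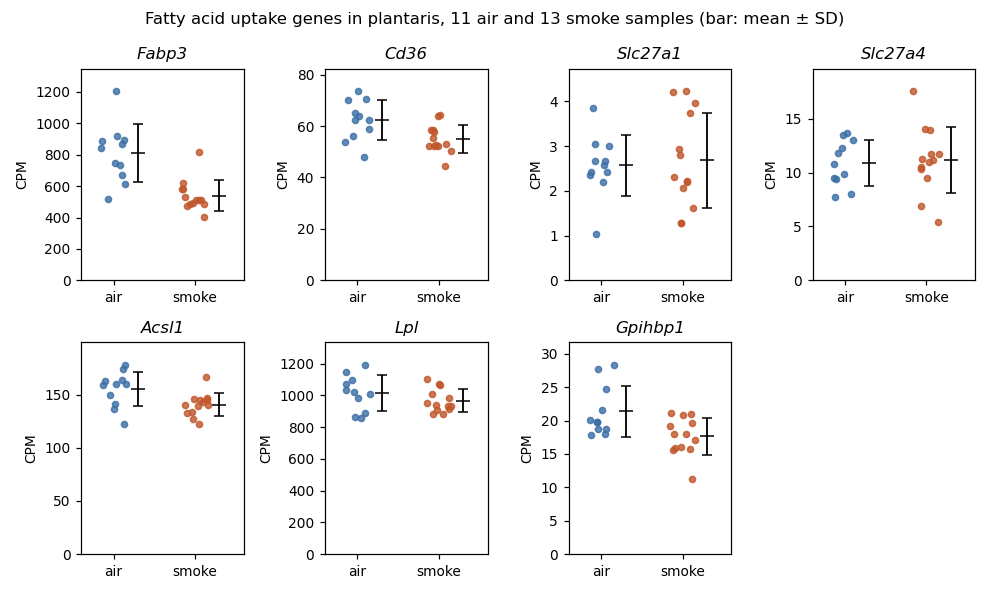
Level of the 7 uptake genes in each sample, in CPM on linear axes that start at 0, with 1 point per sample and a bar at the mean ± SD (11 air, 13 smoke samples). Fabp3 sits between 519 and 1205 CPM in air and between 401 and 818 CPM in smoke, while Slc27a1 stays under 4.3 CPM in every sample.

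Cd36 and the trapping enzyme Acsl1 had lower means in smoke, and the means of both Slc27a transporters were close in the 2 groups. Cd36, a scavenger receptor that takes up long-chain fatty acids in muscle fibres and endothelium (chromosome 5, 17781690 to 17888801, minus strand), ranged from 47.8 to 73.6 CPM in air (median 62.4) and from 44.3 to 64.2 CPM in smoke (median 53.2). Its means were 62.2 ± 7.77 CPM (SD, n = 11) and 55.1 ± 5.49 CPM (SD, n = 13), a log2 difference of −0.18 (SE 0.069). The ranges overlapped for most of their length, with 11 of 13 smoke samples under the air mean.

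Acsl1, the main long-chain acyl-CoA synthetase of muscle (chromosome 8, 46471037 to 46536051, plus strand, overlapping Gm45244 on the opposite strand), ranged from 123 to 178 CPM in air (median 159.8) and from 122 to 167 CPM in smoke (median 139.96). The means were 155 ± 16.4 CPM and 141 ± 10.9 CPM, a log2 difference of −0.14 (SE 0.058), and 12 of 13 smoke samples lay under the air mean.

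Slc27a4 (chromosome 2, 29802634 to 29817522, plus strand), a transport protein with acyl-CoA synthetase activity, ranged from 7.70 to 13.7 CPM in air (median 10.8) and from 5.38 to 17.6 CPM in smoke (median 11.2). Its log2 fold change was 0.04 (SE 0.14), and the highest and the lowest of its 24 values were both in smoke. Its counts were low, from 14 to 63 per sample. Slc27a1 (chromosome 8, 71568882 to 71587302, plus strand), a related transporter that moves to the membrane on insulin, had 3 to 14 counts per sample in air and 4 to 15 in smoke and did not pass the expression filter. Its mean was 2.57 ± 0.680 CPM (SD, n = 11) in air and 2.68 ± 1.07 CPM (SD, n = 13) in smoke, a difference not detectable at this depth. Another gene of this route, Cpt1b, the muscle carnitine palmitoyltransferase, had at most 2 counts in any sample. The 3′ end annotation used in counting is not given in the sources used here, so few counts of these 2 genes need not mean few transcripts, and this was not tested.

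Of the pair that acts at the capillary wall, Gpihbp1 had a lower mean in smoke, and the means of its partner Lpl were close in the 2 groups. Gpihbp1 (chromosome 15, 75596628 to 75599481, plus strand) ranged from 17.8 to 28.3 CPM in air (median 19.8) and from 11.2 to 21.1 CPM in smoke (median 17.9). All 13 smoke samples lay under the air mean of 21.4 ± 3.80 CPM (SD, n = 11), with a smoke mean of 17.6 ± 2.81 CPM (SD, n = 13) and a log2 difference of −0.29 (SE 0.10). Lpl (chromosome 8, 68880491 to 68907448, plus strand) ranged from 858 to 1191 CPM in air (median 1019) and from 882 to 1102 CPM in smoke (median 941), with means of 1016 ± 111 and 968 ± 73.2 CPM and a log2 difference of −0.07 (SE 0.055). The smoke range of Lpl lay inside the air range.

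The order of tag levels was the same in both groups: Lpl, Fabp3, Acsl1, Cd36, Gpihbp1, Slc27a4, Slc27a1. Since a 3′-end library gives tags from the end of each transcript only, these levels need no division by length, but genes can differ in how well their 3′ ends are captured. In air, Lpl and Fabp3 were the only neighbours in the order whose ranges overlapped, with Lpl above Fabp3 in 10 of 11 samples. In smoke, Lpl was above Fabp3 in 13 of 13 samples and the 2 ranges did not overlap, at 882 to 1102 CPM for Lpl and 401 to 818 CPM for Fabp3. In smoke the ranges of Gpihbp1 and Slc27a4 overlapped instead, with Gpihbp1 higher in 12 of 13 samples.

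Fabp3 also varied more between samples of 1 group than genes of like abundance. Its SD on the log2 CPM scale was 0.33 in air and 0.24 in smoke, where tested genes within a 2-fold range of its mean level had median SDs of 0.14 and 0.12. Of these genes, 95.3% varied less than Fabp3 in air and 94.4% in smoke. Lpl, at a similar abundance, had SDs of 0.16 and 0.11 and stood near the middle of its own 152 neighbours in air (53.9% varied less). Cd36, Acsl1 and Gpihbp1 had SDs at or under the median of genes of like level in both groups. Slc27a4, with few counts, had an SD of 0.28 in air and 0.41 in smoke, where genes of like level had medians of 0.31 in both, and in smoke 81.6% of them varied less.

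Whether the uptake genes rise and fall together among samples of 1 group was asked with 46 relations (23 in each group), which do not use the difference between groups. They paired Fabp3 with each other uptake gene tested, and each uptake gene with the mean log2 level of oxidative fibre, endothelial and adipocyte markers. None passed Benjamini-Hochberg adjustment over the 46 (smallest adjusted permutation p 0.678 for Pearson's r and 0.198 for Spearman's rho), and 3 had an unadjusted permutation p of r under 0.05. In air, Fabp3 and Cd36 had an r of 0.66 (two-sided permutation p = 0.0295, adjusted p = 0.678) and a rho of 0.81 (permutation p = 0.00431, adjusted p = 0.198), with r at 0.68 once the 2 samples with the most extreme Cd36 were left out. In smoke the same pair had an r of −0.24 (permutation p = 0.422) and a rho of −0.01 (permutation p = 0.993), and the difference between the groups was not tested.

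Fabp3 and Acsl1 had an r of 0.61 in air (permutation p = 0.0458, adjusted p = 0.702) and a rho of 0.63 (permutation p = 0.044, adjusted p = 0.536), and r was 0.38 when the 2 samples most extreme in Acsl1 were left out, so the size of r rested partly on them. In smoke they had an r of 0.12 (permutation p = 0.669) and a rho of 0.39 (permutation p = 0.189). With the endothelial markers, Fabp3 had an r of 0.59 in smoke (permutation p = 0.0294, adjusted p = 0.678) and a rho of 0.48 (permutation p = 0.0963, adjusted p = 0.554), with r at 0.31 without 2 samples, and in air an r of −0.19 (permutation p = 0.57) and a rho of −0.05 (permutation p = 0.904). Gpihbp1, which is made by endothelial cells, had an r of −0.50 with these markers in air (permutation p = 0.113) and a rho of −0.37 (permutation p = 0.26). In smoke its r was 0.49 (permutation p = 0.0863) and its rho 0.53 (permutation p = 0.0632). Its marker relation thus passed in neither group.

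The genes whose variation within groups was most like that of Fabp3, by Pearson's r of deviations from the group mean over all 24 samples, were Wdr73 (r 0.79), Mrm3 (r 0.70), Retsat (r 0.67), Gpr89 (r 0.67) and Tox4 (r 0.67). For Cd36 they were Dcun1d1 (r 0.70) and Pgrmc1 (r 0.69), for Lpl Grsf1 (r 0.73) and Atp5g3 (r 0.70), and for Acsl1 Jagn1 (r 0.79) and Lamc1 (r 0.77). For Gpihbp1 they were Rasa1 (r 0.74) and Myd88 (r 0.67), and for Slc27a4 Atp6v0e (r 0.78) and Lrp10 (r 0.74). These are the highest values over all other tested genes and are given without a test. None of the uptake genes was among the 5 genes most like another, but Lpl and Acsl1 had an r of 0.65 with each other over the 24 samples, at 0.72 in air and 0.54 in smoke.

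The summed level of 9 markers of oxidative fibres, which are known for high fatty acid use, was lower in smoke, mostly through 2 abundant genes. It ranged from 9414 to 13409 CPM in air (mean 11718 ± 1370, SD) and from 7852 to 11628 CPM in smoke (mean 9384 ± 1110, SD), and all 13 smoke samples lay under the air mean. Mb, myoglobin, made up 60.4% of this sum and Myh2, the myosin of type IIA fibres, 34.8%. Of the 9 markers 1 was called, Mb, beside 1.92% over all tested genes. Mb had a log2 difference of −0.36 (SE 0.061, adjusted p = 0.00107 by the edgeR quasi-likelihood test with Benjamini-Hochberg adjustment), while Myh2 had −0.27 (SE 0.077, adjusted p = 0.0627 by edgeR). The other 7 markers, all slow fibre genes, were not called and had values of both signs. Myl2 had a log2 difference of −0.46 (12 of 13 smoke samples under the air mean), Atp2a2 −0.35 (10 of 13) and Myl3 −0.29 (12 of 13), while Tnnt1, Myh7, Tnni1 and Tnnc1 had values from 0.02 to 0.59. The mean log2 level over the 9 markers, in which each gene counts alike, was lower by 0.13 on average, in 8 of 13 smoke samples.

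Within groups, Fabp3 and the mean log2 level of the 9 oxidative markers had an r of 0.32 in smoke (permutation p = 0.291, adjusted p = 0.819) and a rho of 0.52 (permutation p = 0.0712, adjusted p = 0.536). In air they had an r of −0.17 (permutation p = 0.614, adjusted p = 0.827) and a rho of 0.00. The sum, Mb and Myh2 were then set against Fabp3 in each group, 6 relations added after the data were seen, and none passed adjustment together with the other 46. Adjusted over these 6 alone, r in smoke had a permutation p of 0.0109 with the sum, 0.0109 with Mb and 0.019 with Myh2. No rho and no r in air passed in that way either, so the outcome in smoke depends on the set adjusted over. With the log2 sum, r was 0.73 in smoke (permutation p = 0.00362, adjusted over 52 p = 0.0941) and rho 0.62 (permutation p = 0.0285, adjusted p = 0.385), and r was 0.58 without 2 samples. With Mb alone r in smoke was 0.73 (permutation p = 0.00267, adjusted p = 0.0941) and rho 0.57 (permutation p = 0.0449, adjusted p = 0.385), with r at 0.59 without 2 samples. With Myh2, r was 0.68 (permutation p = 0.0095, adjusted p = 0.165) and rho 0.51 (permutation p = 0.0802, adjusted p = 0.385), and r was 0.45 without 2 samples. In air r was 0.37 with the sum (permutation p = 0.26) and 0.41 with Mb (permutation p = 0.215), with rho at 0.49 (permutation p = 0.13) and 0.57 (permutation p = 0.0705), and r moved to 0.91 and −0.04 without 2 samples. With Myh2 in air r was 0.37 (permutation p = 0.258), rho was 0.49 (permutation p = 0.13) and r without 2 samples was 0.25.

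With the mean log2 level of the 9 oxidative markers as a covariate in the fit over all genes, the log2 fold change of Fabp3 was −0.58. With the log2 sum as a covariate, an alternative added after the data were seen, it was −0.33. In that fit 3 genes of the whole table were called. The sum itself correlated with group at an r of −0.70 over the 24 samples, so the covariate and the exposure are only partly separable. What part fibre makeup had in the Fabp3 difference cannot be read from these values.

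**Figure D2:**
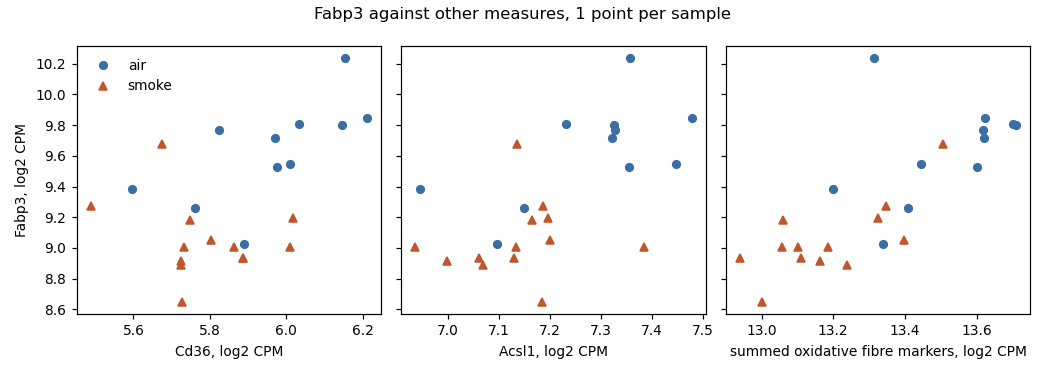
Fabp3 level against Cd36, Acsl1 and the summed oxidative fibre markers, all in log2 CPM, with 1 point per sample (circles air, triangles smoke). Fabp3 and Cd36 had an r of 0.66 in air and −0.24 in smoke, and Fabp3 and the marker sum had an r of 0.37 in air and 0.73 in smoke.

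Among markers of other cells, those of red blood cells differed most. The 12 endothelial markers, which mark the cells that make Gpihbp1 and part of Cd36, summed to 298 to 440 CPM in air and 331 to 422 CPM in smoke, with 10 of 13 smoke samples under the air mean of 385 CPM. Of the 12, 1 was called, beside 1.92% over all tested genes. It was Eng, a co-receptor of the TGF-beta family, at a log2 difference of −0.72 (SE 0.13, adjusted p = 0.0023 by edgeR). Its locus overlaps Fpgs and other annotated genes. The median log2 fold change of the 12 was −0.04, and all 12 passed the expression filter. Their mean log2 level was lower in smoke by only 0.067, and with it as a covariate Gpihbp1 had a log2 difference of −0.29. The part of endothelial content in the Gpihbp1 difference was not tested.

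The 9 adipocyte markers summed to 3920 to 6140 CPM in air and 4555 to 6472 CPM in smoke, mostly from Car3, which muscle fibres also make. Red blood cell markers differed in the same direction as Fabp3, with a sum of 488 to 1445 CPM in air and 369 to 884 CPM in smoke, 12 of 13 smoke samples under the air mean, and 3 of 5 tested markers called lower, beside 1.19% over all tested genes. Their mean log2 level was lower by 0.59 on average, in 13 of 13 smoke samples, beside 0.13 for the oxidative markers, and the part of blood content in the uptake differences was not tested. With the red blood cell level as a covariate Fabp3 had a log2 difference of −0.67 and Gpihbp1 −0.24. Of 13 tested clock and D-box genes 4 were called (3 higher, 1 lower), beside 1.92% over all tested genes, and 9 were not. Their mean log2 level, in which genes of opposite direction cancel, was higher in smoke by only 0.086. With this mean as an added covariate Fabp3 had −0.60, but such a mean cannot capture a clock shift that moves genes both ways. The time of day of tissue collection is not given in the sources used here, and its part in these differences was not tested.

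Around uptake itself, 127 genes in 9 lists of binding proteins, transporters, lipase regulators, storage, mitochondrial entry and PPAR control were read from the same fit. Of the 92 that passed the filter, 7 were called, all of them lower in smoke, and 85 did not pass, where 1.92% of all tested genes were called and 1.19% called lower. Their median log2 fold change was −0.03, with 51 negative values, beside a median of 0.0066 and 48.4% negative values over all 10159 tested genes. The 7 called genes came from 3 lists: Plin5, Plin4, Dgat2 and Mgll from storage and lipolysis, Cpt2 from mitochondrial entry, and Pdk4 and Nr4a3 from PPAR control. No gene was called higher by edgeR, limma voom or DESeq2, and 5 of the 92 had an unadjusted p under 0.05 with a positive fold change in edgeR. The lists were drawn up with earlier results of these data known, the call of Pdk4 among them. The count of 7 is therefore a description, and its distance from the share over all genes was not tested.

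Triglyceride storage and lipolysis held 4 called genes of 14 tested, beside 1.92% over all tested genes, with a median log2 fold change of −0.23. Plin5 (chromosome 17, 56111601 to 56117596), which tethers lipid droplets to mitochondria in oxidative muscle, ranged from 24.4 to 59.1 CPM in air (median 34.0) and from 16.9 to 37.9 CPM in smoke (median 22.6). It fell by 0.63 on the log2 scale (SE 0.14; adjusted p = 0.0098 by the edgeR quasi-likelihood test with Benjamini-Hochberg adjustment), from 38.4 ± 11.0 to 24.5 ± 6.56 CPM, and lay under the air mean in 13 of 13 smoke samples. Dgat2, which makes triglyceride from diglyceride, ranged from 35.3 to 72.7 CPM in air (median 42.5) and from 28.7 to 47.9 CPM in smoke (median 32.7), a log2 difference of −0.39 (SE 0.10; adjusted p = 0.0329 by edgeR). For both genes the groups overlapped.

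Mgll, the lipase that cleaves monoglyceride, ranged from 112 to 159 CPM in air (median 127) and from 88.0 to 140 CPM in smoke (median 106), a log2 difference of −0.29 (SE 0.072; adjusted p = 0.0272 by edgeR). Plin4, a droplet coat protein that was the most abundant gene of the list, ranged from 293 to 428 CPM in air (median 328) and from 226 to 347 CPM in smoke (median 275), a log2 difference of −0.25 (SE 0.069; adjusted p = 0.0481 by edgeR). Plin4 overlaps Hdgfl2 on the opposite strand, and Mgll overlaps 5 predicted genes. Pnpla2, the first lipase of droplet breakdown, had 255 ± 19.0 CPM in air and 269 ± 24.2 CPM in smoke and was not called.

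Cpt2 was the 1 called gene of the 7 tested for mitochondrial entry, beside 1.92% over all tested genes. This inner membrane enzyme of the carnitine route ranged from 44.6 to 58.3 CPM in air (median 53.6) and from 35.0 to 53.5 CPM in smoke (median 44.3), a log2 difference of −0.24 (SE 0.066; adjusted p = 0.0495 by edgeR). The most abundant genes of the list were Crat, at 130 ± 16.7 and 115 ± 11.2 CPM, and Acacb, at 113 ± 11.9 and 114 ± 16.8 CPM, and neither was called.

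In the PPAR list, Pdk4 and Nr4a3 were low in counts. Pdk4, the kinase that shuts off pyruvate oxidation and a classic PPAR target, had 5 to 36 counts per sample in air and 1 to 14 in smoke. Its level ranged from 1.74 to 9.26 CPM in air (median 5.55) and from 0.319 to 4.11 CPM in smoke (median 3.07), a log2 difference of −1.14 (SE 0.27; adjusted p = 0.0165 by edgeR). Nr4a3, an orphan receptor induced by exercise, ranged from 0.695 to 23.7 CPM in air (median 5.88) and from 0.275 to 4.78 CPM in smoke (median 2.55), a log2 difference of −1.66 (SE 0.40; adjusted p = 0.0197 by edgeR). For both, all 13 smoke samples lay under the air mean while the ranges overlapped. Air replicate 4 was the high value of Nr4a3, and without it the log2 fold change was −1.29 with an edgeR adjusted p of 0.057. The receptor partner Rxra, at 196 ± 17.9 and 201 ± 12.9 CPM, and the kinase subunit Prkaa2, at 170 ± 10.9 and 173 ± 11.6 CPM, were the most abundant genes of the list and were not called.

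**Figure D3:**
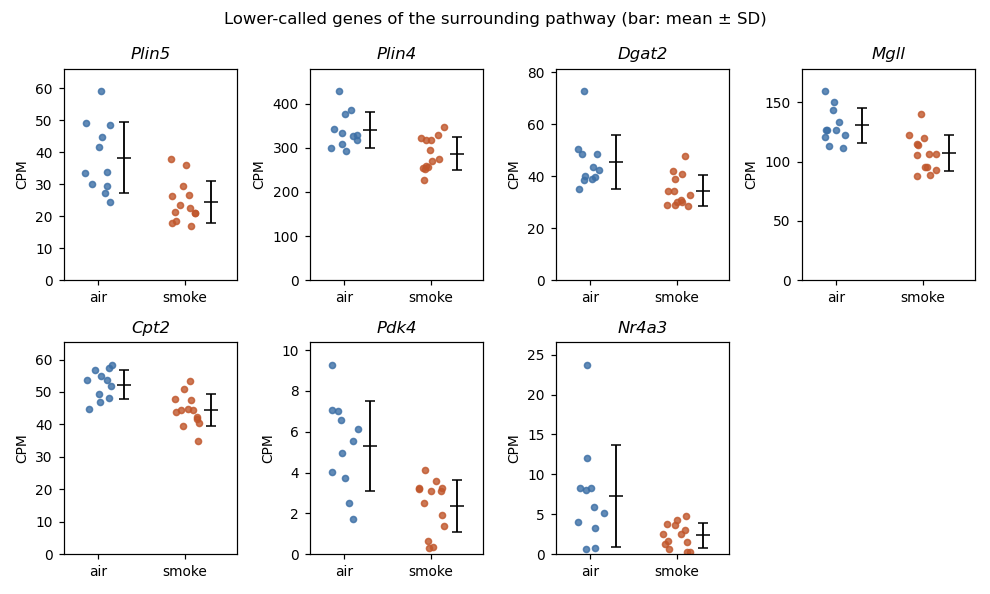
Level of the 7 called genes of the surrounding pathway in each sample, in CPM on linear axes that start at 0, with a bar at the mean ± SD (11 air, 13 smoke samples). Plin5 sits between 24.4 and 59.1 CPM in air and between 16.9 and 37.9 CPM in smoke, and the groups overlap for every gene.

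The 7 calls differed in how they held. Plin5 and Pdk4 stayed called when each of the 24 samples was left out in turn, Nr4a3 in all but 1 of these fits and Mgll in all but 2, while Dgat2 was not called in 11 of them, Plin4 in 15 and Cpt2 in 16. The count was 3 without air replicate 1 and 4 without air replicate 6, air replicate 7 or smoke replicate 3, 4, 5 or 9. DESeq2 called 8 genes of the lists: it added Plin2 and Mlycd and gave Pdk4 no adjusted p. Without the low-count filter edgeR called 6, leaving out Cpt2 (log2 difference −0.25, adjusted p = 0.103). With the red blood cell level as a covariate edgeR called Plin5 (adjusted p = 0.0127) and Nr4a3 (adjusted p = 0.039). The log2 differences of 4 genes that lost their call moved little, to −1.23 for Pdk4 (adjusted p = 0.0731), −0.29 for Mgll (adjusted p = 0.129), −0.24 for Cpt2 (adjusted p = 0.178) and −0.36 for Dgat2 (adjusted p = 0.208), while that of Plin4 was −0.17 (adjusted p = 0.402). Nr4a3 was not called by limma voom (log2 difference −1.43, adjusted p = 0.122), with the added clock covariate (−1.48, adjusted p = 0.0545 by edgeR) or with a replicate block (−1.55, adjusted p = 0.0553 by edgeR). The block, on 22 samples, also left out Mgll (adjusted p = 0.0741) and Cpt2 (adjusted p = 0.0638), with log2 differences of −0.28 for both. With the mean log2 level of the oxidative markers as a covariate edgeR called 5 of the 7, without Plin4 (−0.25, adjusted p = 0.0586) and Cpt2 (−0.23, adjusted p = 0.0697). With the log2 sum of oxidative markers as a covariate edgeR called 0 of the 92 tested genes of the lists (13 at an unadjusted p under 0.05). In that fit Plin5 had a log2 difference of −0.53, Pdk4 −0.72, Nr4a3 −0.51, Dgat2 −0.21, Mgll −0.21, Plin4 −0.16 and Cpt2 −0.15.

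The other 6 lists held 56 tested genes, of which edgeR called 0 (13 at an unadjusted p under 0.05, 8 of them lower), DESeq2 0 of the 53 it gave an adjusted p (14 unadjusted) and limma voom 0 (13 unadjusted). Among the binding proteins, Fabp4, the adipocyte and capillary relative of Fabp3, was the most abundant, at 587 ± 250.8 CPM (SD, n = 11) in air and 628 ± 92.0 CPM (SD, n = 13) in smoke, with air samples from 273 to 1242 CPM. Dbi, which binds acyl-CoA, had 534 ± 52.3 and 492 ± 43.8 CPM. Among the transporters and membrane partners Cavin1 had 357 ± 27.7 and 370 ± 39.2 CPM, and Got2, a mitochondrial enzyme also described as a membrane fatty acid-binding protein, 223 ± 16.2 and 206 ± 18.1 CPM.

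In Cd36 traffic Tbc1d1 had 307 ± 54.5 and 264 ± 44.1 CPM and Rab10 209 ± 24.2 and 220 ± 32.4 CPM. Among other acyl-CoA enzymes Acss1 had 60.2 ± 11.5 and 59.0 ± 8.30 CPM and Acot13 55.8 ± 10.2 and 52.0 ± 6.53 CPM. Among the regulators of lipoprotein lipase Sel1l, which helps the enzyme leave the endoplasmic reticulum, had 114 ± 8.36 and 120 ± 11.3 CPM, and the lipoprotein receptor Vldlr 113 ± 19.4 and 115 ± 18.5 CPM. For capillary passage Flt1 had 122 ± 18.3 and 118 ± 12.8 CPM and its ligand Vegfb 117 ± 11.6 and 114 ± 9.42 CPM. In each pair the air mean stands before the smoke mean, and none of these genes was called.

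**Figure D4:**
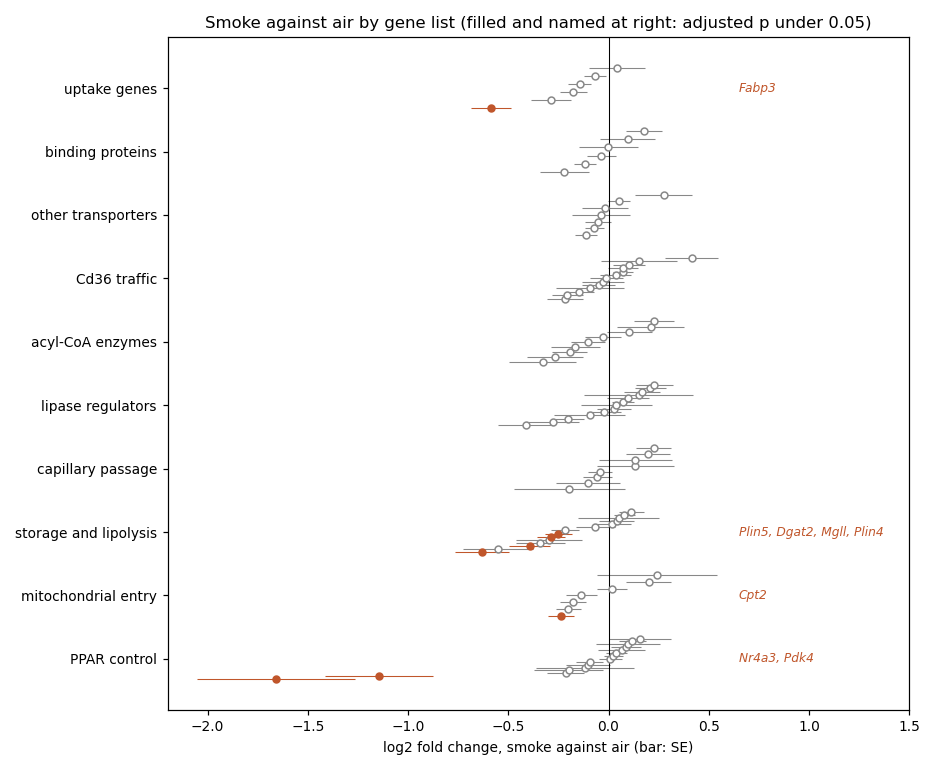
Log2 fold change of smoke against air (horizontal axis, bar at 1 SE) for the 6 tested uptake genes and the tested genes of the 9 surrounding lists, with filled points and names for genes called at an adjusted p under 0.05. Fabp3 lies at −0.59, and the 7 called genes of the lists lie between −1.66 and −0.24, all left of 0.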

How the data were processed

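Plantaris RNA was measured by Lexogen QuantSeq 3′ FWD libraries on an Illumina instrument, per the labels' protocols. The authors deposited raw read counts per Ensembl gene, and per the submitters' processing notes STAR, DESeq2 and the build mm9 were used. The counting tool, annotation, strand use and molecular identifiers are not given in the sources used here, so reads may include PCR copies and floors cover counting error only. Symbols and positions came from GENCODE M21 (GRCm38), which held 47224 IDs (99.1%). No file coordinate was used.

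The sample titles gave the group and number of each sample. Counts were fitted with edgeR 4.0.16 in R 4.3.3 (filterByExpr with a minimum count of 10, TMM, glmQLFit and glmQLFTest, no covariate, all 24 samples), with Benjamini-Hochberg adjustment over all 10159 tested genes and calls at an adjusted p under 0.05, and the procedure was tested on simulated data. DESeq2 1.42.0 and limma 3.58.1 were alternatives, with other scalings, filters, covariates, a replicate block and each sample left out. Log2 CPM (prior count 2) served the correlations, with two-sided permutation tests of 100000 resamples. No 2 samples agreed within sampling noise (chi-square per gene at least 1.54 over 133 pairs within groups).

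The uptake genes and all lists were chosen with earlier results of these data known. Named genes were the 7 uptake genes, in each list the called genes up to 5 and the 2 most abundant, and the 5 genes most like Fabp3 and 2 most like each other uptake gene. Mb, Myh2, Myl2, Myl3, Atp2a2, Eng, Car3, Plin2, Mlycd, Cpt1b, Zcchc17, Gm10570, Fabp3-ps1 and the slow fibre genes were named after their values were seen.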

Additional observations from a re-analysis of the deposited data

How the results depend on the processing

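The log2 fold change of Fabp3, a description since it led to the choice of genes, ranged from −0.65 to −0.52 with samples left out. Of all tested genes 195 were called, against 330 with DESeq2, 56 with the red blood cell covariate and 3 with the added sum of oxidative markers, and from 141 to 254 with samples left out. For pathway genes the count was 7, against 4 with a minimum count of 20, 3 with the endothelial covariate, 2 with the red blood cell covariate, 4 with the added clock covariate and 0 with the added sum of oxidative markers (13 at an unadjusted p under 0.05 in edgeR), and from 3 to 8 with samples left out. Under that sum 0 uptake genes were called in edgeR (1 at an unadjusted p under 0.05). Counts of called uptake genes, here and below, are a description, since their contrast led to the choice of genes. At the minimum count of 20, Pdk4 and Nr4a3 were not tested and Plin4 had a log2 difference of −0.245 with an adjusted p of 0.0518 by edgeR. With the endothelial covariate Dgat2, Plin4, Mgll and Cpt2 were not called, at log2 differences of −0.35, −0.23, −0.25 and −0.22, and with the clock covariate Dgat2, Cpt2 and Nr4a3, at −0.37, −0.25 and −1.48. The cause of the other moves was not tested.

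Replicate numbers did not pair the samples: deviations correlated at a mean r of −0.0059 over 11 same-numbered pairs and 0.0011 over 132 others. With the replicate number as a block, 22 samples gave 138 genes, 1 uptake gene and 5 pathway genes, and without the block the same samples gave 1 uptake gene and 8 pathway genes. Slc27a4 (0.04) turned to −1.06e-06 with the red blood cell covariate, −0.011 with the clock covariate, −0.00048 without air replicate 10 and −0.021 without smoke replicate 10 (up to 0.096 with other samples left out), and Lpl turned to 0.032 with the sum of oxidative markers. By Pearson's r none of the 46 relations passed with a prior count of 0.5, RLE scaling or the 10 most abundant genes removed (smallest adjusted permutation p 0.632). Spearman's rho was not read in these settings. Slc27a1, Slc27a4, Pdk4 and Nr4a3 had medians of at most 38 counts per sample, which limits their precision.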
